A study of Sus scrofa with 6 samples.

Results

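ATF4 and 9 genes that it is known to switch on under amino acid shortage or endoplasmic reticulum stress were followed in the ampulla of the pig oviduct: ATF4, DDIT3, TRIB3, SESN2, CHAC1, ASNS, PSAT1, PHGDH, SLC7A5 and SLC7A11. The 10 genes were chosen by name, and all 10 had a row among the 35670 genes of the deposited count table. The ampulla is the stretch of oviduct where sperm and egg meet. Polyadenylated RNA of ampulla tissue from female pigs (Sus scrofa) was sequenced in 3 libraries of the post-ovulatory stage and 3 of the early luteal stage, and the labels name no breed, age, hormone treatment or animal. No label says whether replicates were separate animals. The p-values thus rest on the spread among these samples, which could be technical. All values below are bulk values of whole tissue, in which fewer cells of a type and less RNA per cell cannot be told apart.

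ATF4 is a basic leucine zipper transcription factor whose protein is made mainly when the initiation factor eIF2 is phosphorylated, a state that the kinases PERK (EIF2AK3), GCN2 (EIF2AK4), HRI (EIF2AK1) and PKR (EIF2AK2) bring about. Its targets import amino acids, make serine, proline and asparagine and charge transfer RNAs, and some of them damp the response or lead towards cell death. Because ATF4 is controlled largely at translation, its mRNA level is no measure of its protein.

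Library totals ran from 7370723 to 30954222 counts, and some libraries stood out in ways that touch these genes. Early luteal replicate 2 had no count for 180 of the 13228 genes that reached at least 2 CPM (counts per 1000000 of the scaled library total) in each of the other 5 libraries, against at most 2 such genes in any other library. The 7 tested cell cycle genes summed to 611.5, 95.5 and 82.8 CPM in post-ovulatory replicates 1, 2 and 3. In early luteal replicates 1, 2 and 3 they summed to 73.1, 48.6 and 35.6 CPM. All 7 had a lower fitted level in early luteal tissue (median log2 fold change -2.76). Of the 7, 4 were lower with no overlap, beside 9.57% of all tested genes. With post-ovulatory replicate 1 left out, 6 of the 7 were lower (median -1.06). Markers of B and plasma cells summed to 554.5 CPM in post-ovulatory replicate 1, of which JCHAIN made up 539 CPM. The ciliated cell regulator FOXJ1 (79.3 to 654 CPM) and the secretory cell glycoprotein OVGP1 (156 to 10690 CPM) were present in every library, while the listed secretory marker CRISP3 was at 0 in all of them. OVGP1 was lowest in post-ovulatory replicate 2 (156 CPM), against 7302 and 10690 CPM in post-ovulatory replicates 1 and 3. That library also had the lowest total. Its mean deviation from the gene means in log2 CPM was the lowest of all libraries for secretory (-0.84) and ciliated (-0.47) markers. Stromal marker levels summed to between 1624 and 3063 CPM in post-ovulatory and between 1224 and 1421 CPM in early luteal libraries, and 9 of the 10 stromal markers had a lower fitted level in early luteal tissue. So did 6 of 8 endothelial markers (median log2 fold change -0.71, and -0.36 without early luteal replicate 2), 9 of 10 of T and NK cells (-0.62 and -0.14) and 8 of 9 of macrophages and dendritic cells (-0.59 and -0.27), whose summed levels overlapped between the stages. Smooth muscle markers summed to 999 CPM in early luteal replicate 1 against 2889 to 9365 CPM in the other libraries. Of the 8 tested, 7 had a higher fitted level in early luteal tissue (median 0.55). Without early luteal replicate 3, 6 of the 8 had a lower one (median -0.39). The part of these cell types and of the cell cycle genes in the results was not tested.

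The transporters SLC7A11 and SLC7A5 and the serine enzyme PHGDH had lower means in early luteal tissue, by 2.35-fold to 5.16-fold. Without early luteal replicate 2 this was 2.81-fold to 3.44-fold. PHGDH overlapped between the stages, and its post-ovulatory SD (15.1 CPM) was nearly as large as its mean there (19.4 CPM). The means of ATF4 itself, DDIT3 and TRIB3 differed by at most 1.17-fold. ASNS, PSAT1 and SESN2 lay between these groups, and CHAC1 was near the limit of detection. None of the 9 members that passed the filter on low counts passed the threshold of edgeR's quasi-likelihood test (adjusted p of 0.05, by Benjamini-Hochberg), and neither did any other gene, so that 0% of the 17920 tested genes were called. The lowest adjusted p among the members was 0.677, for SLC7A11. By DESeq2, which called 0.986% of the genes it adjusted, 0 of the 10 members were called (lowest adjusted p = 0.22), and likewise 0 without early luteal replicate 2, where it called 1.07% of genes. At an unadjusted p under 0.05 edgeR counted 1 of 9 members (SLC7A11) and 7.11% of all tested genes. By limma voom it was 3 of 9 members and 1277 of 17920 genes. DESeq2, fitted without that filter, counted 4 of 10 members, CHAC1 included, and 2251 of 30048 genes.

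Of the 10 members, 2 (SLC7A11 and SLC7A5) were lower in each early luteal library than in any post-ovulatory library, and 0 had the reverse. Over all tested genes 9.57% were apart in that direction, 7.61% in the other and 17.2% in either. This count depended on single libraries, and leaving a library out can only keep or raise it. Without post-ovulatory replicate 2, the lowest of its stage for all 10 members, 7 of 10 were lower with no overlap (14.3% of all genes then) and 3 were lower at an unadjusted p under 0.05 in edgeR (3.45% of all genes then). The count was 4 without early luteal replicate 1 (18.2% of all genes then) and 4 without early luteal replicate 3 (13.9%). It was 2 without each of the remaining libraries, where 12.6% to 14.1% of all genes were apart in that direction. Of the 9 members tested, 7 had a fitted log2 fold change (early luteal over post-ovulatory) below 0, where 51.8% of all tested genes did. Their median was -0.50, beside -0.03 for all tested genes. It ranged from -0.31 without post-ovulatory replicate 1 (9 members tested) to -1.004 without post-ovulatory replicate 2. In the latter fit CHAC1 passed the filter and 10 members were tested, so these medians cover unlike sets of genes.

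**Figure D1:**
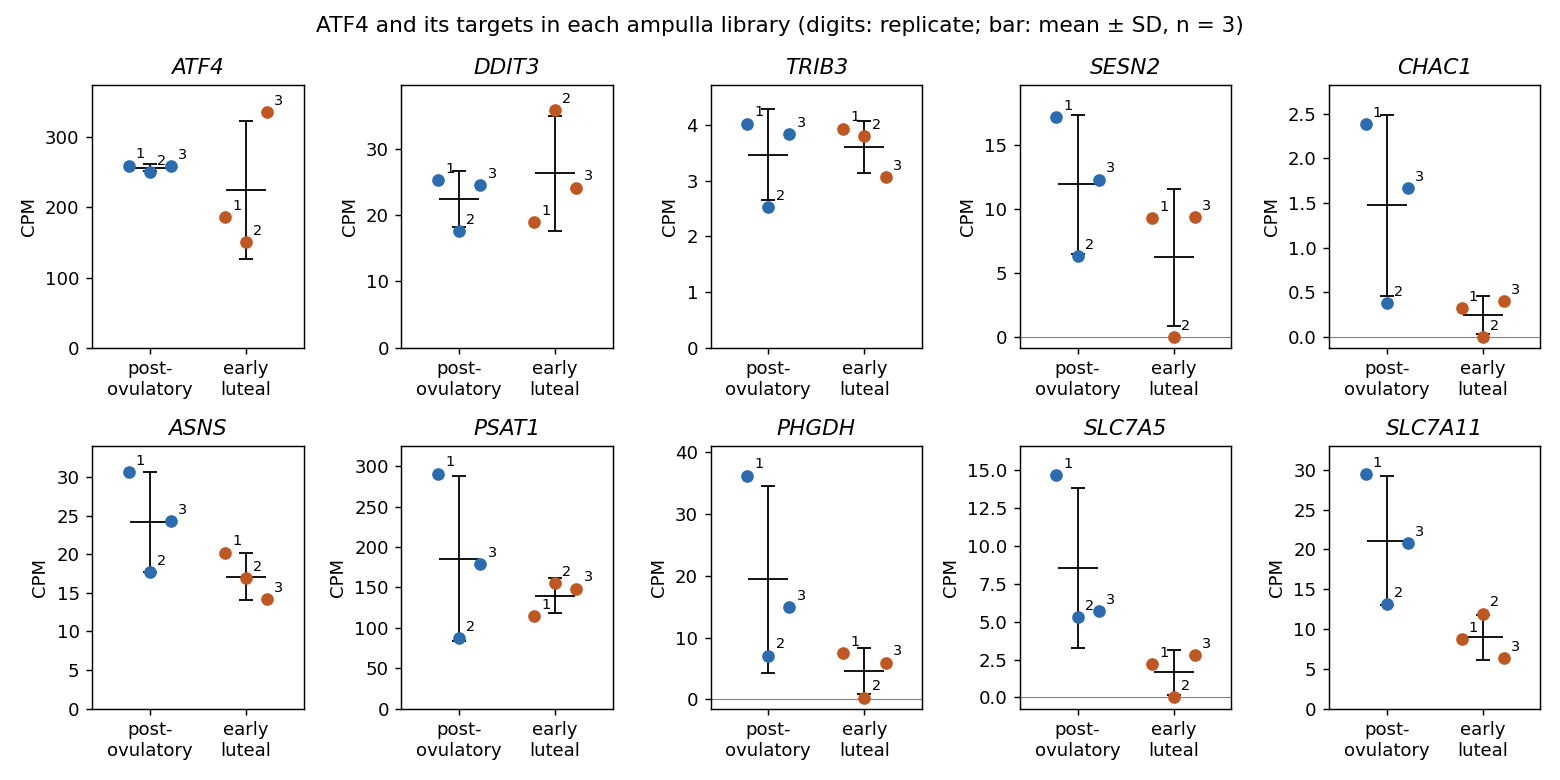
Level of each of the 10 genes in CPM (vertical axes, linear) in the 3 post-ovulatory (blue) and 3 early luteal (orange) libraries, with the replicate number beside each point and the mean ± SD as bars. Post-ovulatory replicate 1 is the highest library in 8 of the 10 panels, early luteal replicate 2 is the lowest in 5, and the stages are apart only for SLC7A5 and SLC7A11.

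ATF4 (ENSSSCG00000059058), the factor itself, lies on chromosome 5 at 8742964 to 8745752 in the RefSeq annotation of Sscrofa11.1. It stood at 259.7, 250.7 and 259 CPM in post-ovulatory replicates 1, 2 and 3 and at 186, 151 and 336 CPM in early luteal replicates 1, 2 and 3. The post-ovulatory libraries were almost equal, and the early luteal ones lay on both sides of them, 2 below and 1 above. The means were 256 ± 4.98 CPM (SD, n = 3) and 224.5 ± 98.4 CPM (SD, n = 3). The log2 fold change was -0.19 ± 0.33 (SE; edgeR, adjusted p = 0.904), and it was 0.02 ± 0.28 without early luteal replicate 2.

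DDIT3 (ENSSSCG00000050998), which encodes CHOP, a partner and target of ATF4 linked to cell death under lasting stress, stood at 25.3, 17.6 and 24.5 CPM in post-ovulatory and at 18.9, 35.8 and 24.1 CPM in early luteal replicates 1, 2 and 3. The highest value belonged to early luteal replicate 2, the library in which ATF4 was lowest. The stages overlapped (log2 fold change 0.22 ± 0.35, SE; edgeR, adjusted p = 0.889). DDIT3 lies on chromosome 5 at 22785441 to 22789867, where the RefSeq table also places part of the methionyl-tRNA synthetase gene MARS, so reads of the overlap could be credited to either gene. TRIB3 (ENSSSCG00000039862), a pseudokinase that binds ATF4 and AKT and damps the response, was measured from 20 to 120 counts a library. It stood at 4.02, 2.53 and 3.84 CPM in post-ovulatory and at 3.93, 3.79 and 3.06 CPM in early luteal replicates 1, 2 and 3. No order of the stages showed in these values (log2 fold change 0.05 ± 0.52, SE; edgeR, adjusted p = 0.986). TRIB3 lies on chromosome 17 at 34808273 to 34819592.

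SESN2 (ENSSSCG00000029438) encodes sestrin 2, a leucine-binding protein that restrains the growth kinase complex mTORC1. It stood at 17.2, 6.32 and 12.3 CPM in post-ovulatory and at 9.28, 0 and 9.38 CPM in early luteal replicates 1, 2 and 3. Early luteal replicates 1 and 3 lay within the post-ovulatory range, and the low early luteal mean came from replicate 2 alone. At the mean level of the other early luteal libraries (9.33 CPM), early luteal replicate 2 would have held 68.8 counts of SESN2, and it held 0. With a floor of 3 counts (0.406 CPM in that library) this is at least 22.9-fold lower. The log2 fold change was -0.93 ± 1.11 (SE; edgeR, adjusted p = 0.857) with all libraries and -0.36 ± 0.45 without early luteal replicate 2. SESN2 lies on chromosome 6 at 85321982 to 85348044.

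CHAC1 (ENSSSCG00000038521) encodes an enzyme that breaks down glutathione and is a sensitive readout of ATF4 and CHOP activity. It gave 32, 3 and 52 counts in the post-ovulatory libraries and 5, 0 and 6 counts in early luteal replicates 1, 2 and 3, too few to pass the filter. These counts corresponded to 2.38, 0.379 and 1.66 CPM in post-ovulatory and to 0.322, 0 and 0.399 CPM in early luteal replicates. Post-ovulatory replicates 1 and 3 were above all other libraries, and post-ovulatory replicate 2 was level with the early luteal ones. The exact 95% Poisson interval of post-ovulatory replicate 2 ran from 0.0781 to 1.11 CPM, and that of early luteal replicate 3 from 0.146 to 0.868 CPM, counting error only. The 0 of early luteal replicate 2 has an upper limit of 0.4998 CPM by the same interval, so a difference from its stage was not detectable at this depth. Without early luteal replicate 2 the gene passed the filter, with a log2 fold change of -2.04 ± 0.90 (SE; edgeR, adjusted p = 0.605). CHAC1 lies on chromosome 1 at 130360510 to 130363332.

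ASNS (ENSSSCG00000015340), the enzyme that makes asparagine, stood at 30.7, 17.7 and 24.3 CPM in post-ovulatory and at 20.2, 16.9 and 14.2 CPM in early luteal replicates 1, 2 and 3. The stages overlapped because post-ovulatory replicate 2 lay below early luteal replicate 1. The log2 fold change was -0.50 ± 0.35 (SE; edgeR, adjusted p = 0.765), and the value without early luteal replicate 2 was the same to 2 decimals. ASNS lies on chromosome 9 at 77318341 to 77336290.

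PSAT1 and PHGDH are neighbouring steps of serine synthesis: PHGDH oxidises 3-phosphoglycerate, and PSAT1 adds the amino group. PSAT1 (ENSSSCG00000005287, chromosome 1 at 231142673 to 231172364) stood at 290.8, 87.0 and 179 CPM in post-ovulatory and at 115, 155 and 148.5 CPM in early luteal replicates 1, 2 and 3. All 3 early luteal libraries lay inside the wide post-ovulatory range (log2 fold change -0.41 ± 0.42, SE; edgeR, adjusted p = 0.826), and without post-ovulatory replicate 1 the log2 fold change was 0.05. PHGDH (ENSSSCG00000006717, chromosome 4 at 101445977 to 101478144) stood at 36.3, 7.07 and 14.9 CPM in post-ovulatory and at 7.41, 0.271 and 5.92 CPM in early luteal replicates 1, 2 and 3. Post-ovulatory replicates 1 and 3 were above all early luteal libraries, and post-ovulatory replicate 2 was just below early luteal replicate 1. The mean was 19.4 ± 15.1 CPM (SD, n = 3) in post-ovulatory and 4.53 ± 3.77 CPM (SD, n = 3) in early luteal tissue, a ratio of 4.28. The log2 fold change was -2.07 ± 0.96 (SE; edgeR, adjusted p = 0.685). It was -1.27 when post-ovulatory replicate 1 was left out and -1.55 when early luteal replicate 2 was, where PHGDH had 2 counts. In the library with the highest PHGDH, post-ovulatory replicate 1, the cell cycle genes were highest too, and the part of that in the result was not tested.

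SLC7A5 and SLC7A11 encode the light chains of 2 amino acid exchangers that share the heavy chain SLC3A2: with it SLC7A5 forms LAT1, which imports leucine and other large neutral amino acids, and SLC7A11 forms xCT, which imports cystine for glutathione synthesis. SLC7A5 (ENSSSCG00000032996) stood at 14.7, 5.31 and 5.72 CPM in post-ovulatory and at 2.19, 0 and 2.79 CPM in early luteal replicates 1, 2 and 3. Every early luteal library was below every post-ovulatory one. The mean was 8.57 ± 5.29 CPM (SD, n = 3) against 1.66 ± 1.47 CPM (SD, n = 3), a ratio of 5.16 that was 3.44 with early luteal replicates 1 and 3 alone. The log2 fold change was -2.32 ± 1.04 (SE; edgeR, adjusted p = 0.685), -1.78 ± 0.61 without early luteal replicate 2 and -1.69 without post-ovulatory replicate 1. The gene lies on chromosome 6 at 1545940 to 1574298, and the RefSeq table lists its transcript there as a long non-coding RNA.

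SLC7A11 (ENSSSCG00000022649, chromosome 8 at 88608083 to 88690589) stood at 29.4, 13.1 and 20.8 CPM in post-ovulatory and at 8.70, 11.9 and 6.32 CPM in early luteal replicates 1, 2 and 3. The nearest libraries of the stages were post-ovulatory replicate 2 and early luteal replicate 2, which did not overlap. This was the member with the lowest p, and early luteal replicate 2 was the highest of its stage here. The mean was 21.1 ± 8.14 CPM (SD, n = 3) against 8.98 ± 2.81 CPM (SD, n = 3), a ratio of 2.35. The log2 fold change was -1.24 ± 0.44 (SE; edgeR, unadjusted p = 0.022, adjusted p = 0.677), and leaving out each library in turn moved it between -1.49 and -0.94. The adjusted p was 0.22 in DESeq2, 0.174 in limma voom with sample quality weights and 0.0676 in DESeq2 without early luteal replicate 2. In edgeR the unadjusted p was above 0.05 without post-ovulatory replicate 1 (0.0905, adjusted p = 0.985), post-ovulatory replicate 3 (0.0582), early luteal replicate 1 (0.0573) or early luteal replicate 3 (0.0757). It was 0.0524 in the fit that blocked on replicate number.

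The heavy chain SLC3A2 did not set the stages apart. It stood at 60.4, 36.8 and 52.3 CPM in post-ovulatory and at 31.4, 18.2 and 59.4 CPM in early luteal replicates 1, 2 and 3 (log2 fold change -0.45 ± 0.43, SE; edgeR, adjusted p = 0.819). Per 100 counts of SLC3A2, with no correction for length, the post-ovulatory libraries held 24.3, 14.4 and 10.9 counts of SLC7A5 and the early luteal ones 6.97, 0 and 4.70. This ratio kept the stages apart. The same ratio of SLC7A11 did not, at 48.7, 35.7 and 39.7 against 27.7, 65.7 and 10.6, with early luteal replicate 2 the highest of all 6 libraries.

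**Figure D2:**
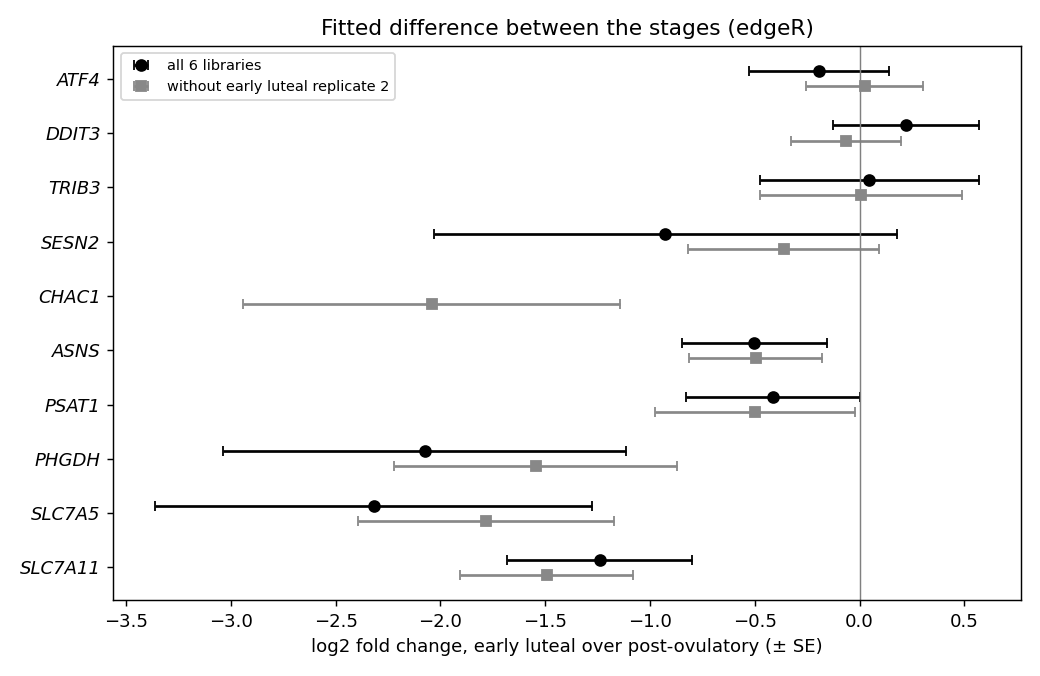
Fitted log2 fold change, early luteal over post-ovulatory, with its SE as bars (horizontal axis), for each of the 10 genes, with all 6 libraries (black circles) and without early luteal replicate 2 (grey squares). Of the fits shown, CHAC1 was tested only in that without early luteal replicate 2. SLC7A11 lies near -1.24 and -1.49, while ATF4, DDIT3 and TRIB3 lie around 0 in both fits.

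Early luteal replicate 2 split the members. PHGDH, SESN2 and SLC7A5 lay there at less than 10% of the lowest of the other 5 libraries, which 2.59% of 13228 comparable genes did in this library and at most 0.0486% in any other. SESN2 and SLC7A5 were among the 180 genes without a count. SLC7A5 would have given 18.4 counts at the mean of the other early luteal libraries. DDIT3, TRIB3, PSAT1 and SLC7A11 were not low in it. The stage means of SESN2, PHGDH and SLC7A5 therefore include a library in which these genes were nearly or wholly missing, and the part of the library itself in this was not tested.

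Among the 9 tested members, the level in 1 library did not carry over to all. Of their 36 pairs, 4 had a Pearson correlation above 0.8 over the 6 libraries and 8 had a negative one, with a median of 0.403. The pairs PHGDH with SLC7A5 (0.981), SESN2 with PHGDH (0.954) and SESN2 with SLC7A5 (0.947) were the highest, and all 3 genes were at or near 0 in early luteal replicate 2. Without that library these pairs stood at 0.896, 0.88 and 0.629. Over the same 5 libraries 11 of 36 pairs were above 0.8, with a median of 0.648, and SESN2 with PSAT1 was the highest pair (0.978). SLC7A11 ran with ASNS with and without it (0.899 and 0.917). ATF4 mRNA ran with none of its targets in the 5 remaining libraries beyond 0.572 (DDIT3). These correlations over 5 or 6 libraries carry no test, and the part of depth and tissue makeup in them was not tested.

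**Figure D3:**
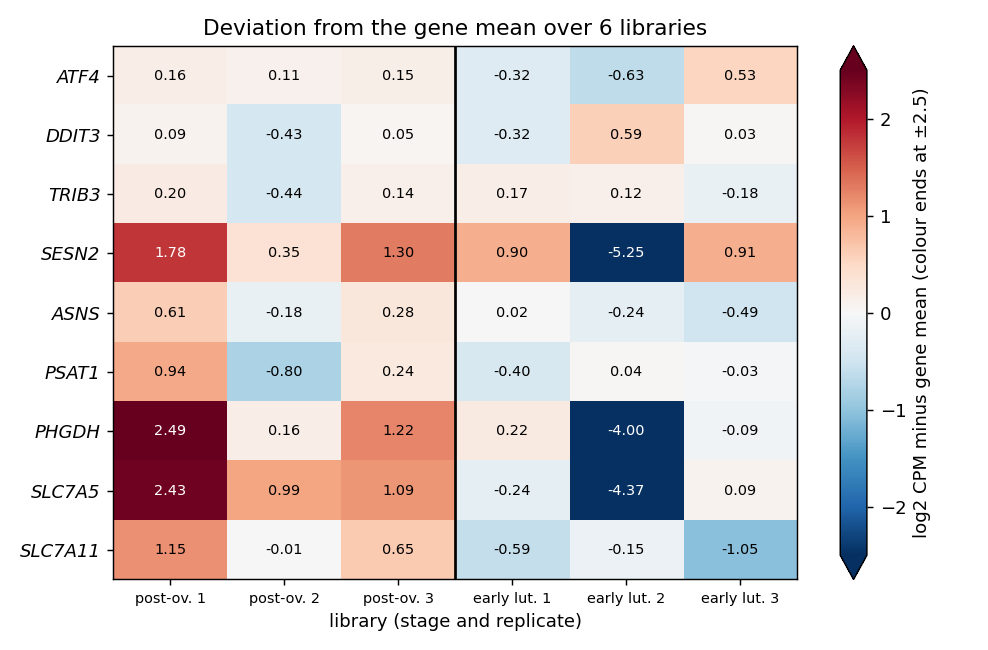
Deviation of log2 CPM from each gene's mean over the 6 libraries (colour and printed value) for the 9 tested genes (rows) in each library (columns). Post-ovulatory replicate 1 is high for PHGDH (2.49), SLC7A5 (2.43) and SESN2 (1.78), and early luteal replicate 2 is low for SESN2 (-5.25), SLC7A5 (-4.37) and PHGDH (-4.00).

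In post-ovulatory replicates 1, 2 and 3 the mean of these deviations was 1.10, -0.03 and 0.57, and in the early luteal ones it was -0.06, -1.54 and -0.03. Post-ovulatory replicate 2 was level with early luteal replicates 1 and 3. The 5 genes with the most similar course over the 6 libraries were ACTR1B (Pearson r = 0.998), SNRPA (0.997), UBL5 (0.996), NEURL1B (0.993) and OPA3 (0.993), none of which is in the lists of ATF4 targets used here. SNRPA, a component of the U1 spliceosome particle, stood at 81.6, 39.03 and 57.1 CPM in post-ovulatory and at 38.5, 17.1 and 38.4 CPM in early luteal replicates 1, 2 and 3. Such a course was common: 769 of 9357 candidate genes had an r above 0.9.

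Genes around ATF4 are given below as values of replicates 1, 2 and 3, post-ovulatory libraries first. At an unadjusted p under 0.05 in edgeR, 3.54% of all tested genes were lower and 640 of 17920 higher in early luteal tissue. Among the pathway lists DESeq2 called KLHL24, SLC1A1 and 4 chaperone genes (MANF, CALR, HYOU1 and CRELD2), and 0 genes in each of the others. Upstream of ATF4 stand the kinases of eIF2 and its exchange and phosphatase subunits. Of 18 listed genes 16 were tested, 11 had a lower and 5 a higher fitted level in early luteal tissue, 0 passed in edgeR (1 at an unadjusted p under 0.05), and the median log2 fold change was -0.12. Of the 16, 3 were lower with no overlap, where 9.57% of all tested genes were. HRI (EIF2AK1), the kinase that senses haem shortage and mitochondrial stress, stood at 42.9, 30.1 and 38.0 CPM against 24.5, 14.1 and 24.5 CPM, with no overlap, and had the lowest unadjusted p of the list (0.0383; edgeR, adjusted p = 0.685). GCN2 (EIF2AK4), which senses uncharged transfer RNA, stood at 73.5, 115 and 120.3 CPM against 105, 198 and 146 CPM (log2 fold change 0.54 ± 0.32, SE). PERK (EIF2AK3), the kinase of the endoplasmic reticulum, stood at 36.7, 32.8 and 37.7 CPM against 24.6, 24.3 and 33.7 CPM and overlapped between the stages. PPP1R15A, the subunit that lets eIF2 be dephosphorylated and is itself an ATF4 target, stood at 143, 87.8 and 106 CPM against 94.7, 68.3 and 149.6 CPM, also with overlap.

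Of 11 partners and related factors 6 had a lower and 5 a higher fitted level, with a median of -0.04 and 0 passed in edgeR (1, ATF3, at an unadjusted p under 0.05). ATF3, a target that is also induced by tissue handling, stood at 61.0, 66.6 and 16.3 CPM in post-ovulatory and at 27.2, 260.3 and 239 CPM in early luteal replicates (edgeR, adjusted p = 0.685). The immediate early and handling genes, which include ATF3, were highest in the same early luteal libraries, at a summed level of 1416 and 2032 CPM in replicates 2 and 3 against 506 CPM in replicate 1. The dimer partner CEBPB overlapped between the stages (46.7 ± 3.57 against 40.9 ± 13.1 CPM, SD, n = 3). CEBPG, another partner, was lower with no overlap (78.9 ± 4.63 against 63.7 ± 12.05 CPM, SD, n = 3), by a log2 fold change of -0.31 ± 0.25 (SE, edgeR, adjusted p = 0.791). Of the 11, 1 was lower and 1 higher with no overlap, beside 9.57% and 7.61% of all tested genes. NFE2L2, the factor that also drives SLC7A11 under oxidative stress, stood at 245, 207 and 232 CPM against 279.7, 533.5 and 250.1 CPM. The 12 genes of cystine and glutathione handling that NFE2L2 is known for had a median of -0.26, with 9 lower, 3 higher and 0 passed in edgeR (0 at an unadjusted p under 0.05). In that list TXNRD1, a thioredoxin reductase, was lower with no overlap at 17.7, 11.0 and 13.2 CPM against 7.41, 9.62 and 3.52 CPM.

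Other known ATF4 targets showed no common direction. Of 25 listed genes 20 were tested, 9 lower and 11 higher, with a median of 0.07 and 0 passed in edgeR. At an unadjusted p under 0.05, 3 of the 20 were higher, beside 640 of all 17920 tested genes, and 0 were lower. KLHL24 had the lowest unadjusted p, at 38.7, 52.3 and 60.9 CPM in the post-ovulatory libraries and 119, 169 and 105 CPM in early luteal replicates (log2 fold change 1.37 ± 0.30, SE; edgeR, adjusted p = 0.554; DESeq2, adjusted p = 0.0175). CTH, which makes cysteine from cystathionine, stood at 8.64, 5.05 and 6.94 CPM against 12.6, 20.1 and 15.3 CPM, higher in every early luteal library, opposite to the cystine transporter SLC7A11 (log2 fold change 1.21 ± 0.42, SE; edgeR, adjusted p = 0.675). MAP1LC3B, an autophagy gene, was higher with no overlap as well (43.2 ± 6.29 against 73.3 ± 9.64 CPM, SD, n = 3). VEGFA was lower with no overlap (40.5 ± 6.21 against 17.97 ± 12.1 CPM, SD, n = 3).

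Several enzymes around serine and proline were highest in post-ovulatory replicate 1. Of 13 tested serine, glycine and one-carbon enzymes 5 were lower and 8 higher, with a median of 0.08 and 0 passed in edgeR. At an unadjusted p under 0.05, 2 of the 13 were lower, beside 3.54% of all tested genes, and 0 were higher. MTHFD1 stood at 258, 77.2 and 84.3 CPM against 59.1, 56.4 and 59.4 CPM, and its mitochondrial relative MTHFD2, a well known ATF4 target, at 9.61, 5.43 and 5.24 CPM against 3.61, 1.36 and 4.39 CPM; both were apart between the stages. TYMS, which makes thymidylate for DNA synthesis, stood at 84.1, 15.7 and 11.03 CPM against 12.8, 2.57 and 4.19 CPM. Among 13 tested enzymes of other amino acids, 9 were lower and 4 higher (median -0.20, 0 passed in edgeR, 1 at an unadjusted p under 0.05), and the proline enzymes PYCR1 and PYCR3 had the lowest log2 fold changes. PYCR1 stood at 27.3, 13.3 and 14.9 CPM against 4.25, 0.406 and 10.4 CPM, and ALDH18A1 at 110.5, 82.2 and 81.1 CPM against 61.1, 48.0 and 64.03 CPM. PYCR3 stood at 14.4, 12.6 and 17.2 CPM against 11.7, 0.677 and 11.0 CPM. In early luteal replicate 2 PYCR1 had 3 counts and PYCR3 had 5. Without that library the log2 fold change of PYCR1 moved from -1.85 to -1.33 and that of PYCR3 from -0.91 to -0.38.

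Amino acid transporters other than the 2 members were balanced, with 8 lower and 8 higher among 16 tested, a median near 0 and 0 passed in edgeR. At an unadjusted p under 0.05, 2 were higher, beside 640 of all 17920 tested genes, and 1 was lower, beside 3.54%. SLC1A1, which takes up glutamate, aspartate and cysteine, stood at 3.65, 1.26 and 1.79 CPM in post-ovulatory and at 7.02, 21.3 and 13.7 CPM in early luteal replicates 1, 2 and 3. Every early luteal library was above every post-ovulatory one (log2 fold change 2.63 ± 0.63, SE; edgeR, adjusted p = 0.571), and DESeq2 called the gene (adjusted p = 0.00495). SLC38A1, a glutamine carrier, was higher too (6.26 ± 0.726 against 12.9 ± 3.51 CPM, SD, n = 3). SLC7A1, the carrier of lysine and arginine, was lower with no overlap (19.8 ± 3.50 against 11.4 ± 1.72 CPM, SD, n = 3).

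The cytosolic aminoacyl-tRNA synthetases, many of which ATF4 is known to induce, leaned to lower levels in early luteal tissue. Of 20 listed genes 19 were tested, and 17 had a lower and 2 a higher fitted level, with a median log2 fold change of -0.42. The edgeR threshold was passed by 0 of them, and 6 were lower at an unadjusted p under 0.05 (31.6% of 19, where 3.54% of all tested genes were). In 9 of the 19 the early luteal libraries were all lower than the post-ovulatory ones (47.4%, beside 9.57% of all tested genes). The largest differences were those of FARSA, at 39.6, 33.5 and 31.4 CPM against 20.2, 6.77 and 17.8 CPM (log2 fold change -1.21 ± 0.43, SE), and HARS1, at 83.4, 47.2 and 48.8 CPM against 30.5, 27.9 and 30.7 CPM (-1.01 ± 0.30, SE; edgeR, adjusted p = 0.649). YARS1 stood at 72.8, 62.9 and 63.8 CPM against 39.6, 20.3 and 42.7 CPM. Of the 2 with a higher fitted level, NARS1 stood at 337, 218 and 233 CPM against 180, 632 and 206 CPM, the high value being that of early luteal replicate 2.

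Without early luteal replicate 2, 18 of the 19 synthetases were lower, 13 had no overlap (14.1% of all genes then) and 7 were at an unadjusted p under 0.05 (4.22% of all genes then), with a median of -0.46. Without post-ovulatory replicate 1, 15 were lower and 9 had no overlap (13% of all genes then), the median was -0.29, and 1 was left at an unadjusted p under 0.05 (1.42% of all genes then). Genes apart with all libraries stay apart when any is left out, so the counts with no overlap could not fall. In post-ovulatory replicate 1, the library with the highest cell cycle level, the mean deviation of the synthetases was 0.57, against 0.10 in both other post-ovulatory libraries and between -0.40 and -0.19 in the early luteal ones. The part of that library's makeup, and of the lower stromal and cell cycle levels in early luteal tissue, was not tested.

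**Figure D4:**
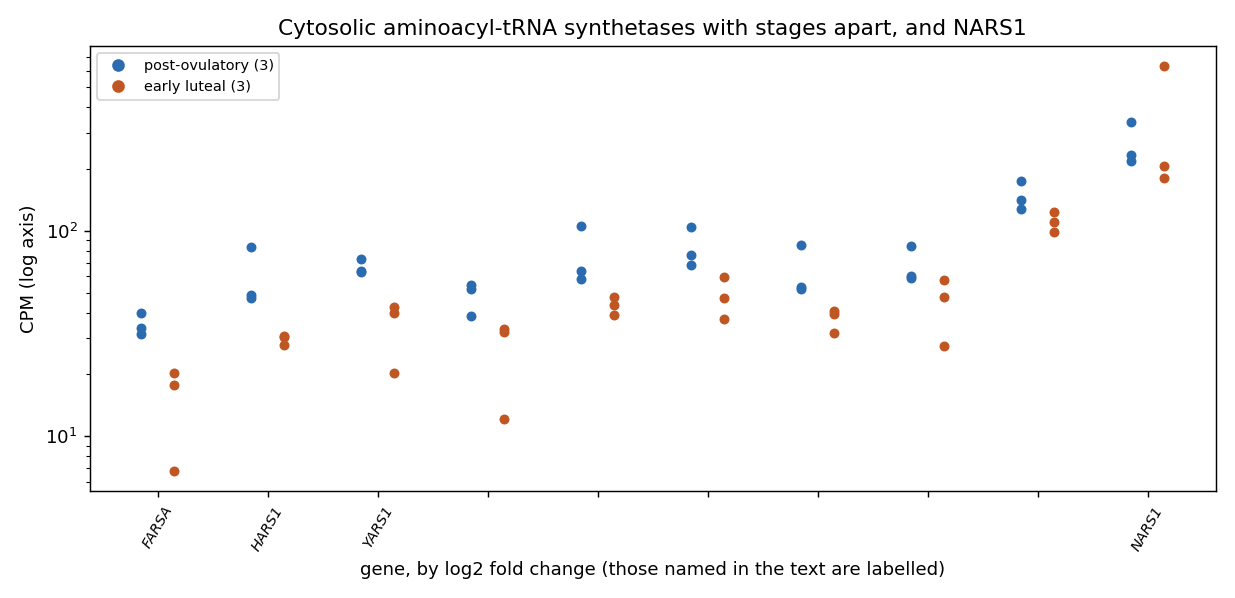
Level in CPM (log axis) in the 3 post-ovulatory (blue) and 3 early luteal (orange) libraries of the 9 cytosolic aminoacyl-tRNA synthetases whose stages do not overlap and of NARS1, ordered by log2 fold change, with the genes named in the text labelled. For the 9 genes, among them FARSA, HARS1 and YARS1, the orange points all lie below the blue ones, and the high orange point of NARS1 is early luteal replicate 2.

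The remaining neighbours of the pathway were mixed. Sestrins and the amino acid sensors of mTORC1 had 8 lower and 11 higher among 19 tested (median 0.07, 0 passed in edgeR, 1 at an unadjusted p under 0.05). SESN1, the sestrin better known as a p53 and FOXO target, was higher in every early luteal library at 18.3, 22.2 and 20.4 CPM against 34.1, 36.04 and 28.9 CPM (log2 fold change 0.70 ± 0.28, SE; edgeR, adjusted p = 0.685), while SESN2 was not. MTOR stood at 67.6, 55.5 and 52.6 CPM against 51.7, 29.0 and 43.8 CPM. Of 7 p53 targets, SESN1 included, 4 were higher and 3 lower (median 0.17, 0 passed in edgeR, 2 at an unadjusted p under 0.05). Among 5 tested relatives and partners of TRIB3 (3 lower, 2 higher, median -0.08, 0 passed in edgeR, 1 at an unadjusted p under 0.05), TRIB1 stood at 5.21, 8.34 and 6.14 CPM against 13.98, 22.1 and 10.9 CPM and did not overlap between the stages.

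The chaperone arms of the unfolded protein response, which ATF6 and XBP1 drive beside the PERK and ATF4 arm, were lower in 13 of 16 tested genes (median -0.53, 0 passed in edgeR, 7 lower at an unadjusted p under 0.05, DESeq2 called 4), beside 3.54% of all tested genes lower at that p and 0.986% called by DESeq2. In 8 of the 16 every early luteal library was below every post-ovulatory one, beside 9.57% of all tested genes. HYOU1 stood at 199, 117 and 140.4 CPM against 55.1, 36.4 and 41.9 CPM, where DDIT3 and TRIB3 overlapped between the stages. The most abundant of the 16, HSP90B1, overlapped too, at 3166, 1663 and 1995 CPM against 1249, 2667 and 1269 CPM. Mean deviation of the 16 was 0.88, 0.08 and 0.38 in post-ovulatory replicates and between -0.72 and -0.26 in early luteal ones. With post-ovulatory replicate 1 left out, 13 were lower and 9 had no overlap (13% of all genes then), a count that could not fall. At an unadjusted p under 0.05 in edgeR, 5 were then lower (1.42% of all genes then). The part of that library's makeup was not tested. That the chaperones and DDIT3 differ in their response was not tested.

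**Figure D5:**
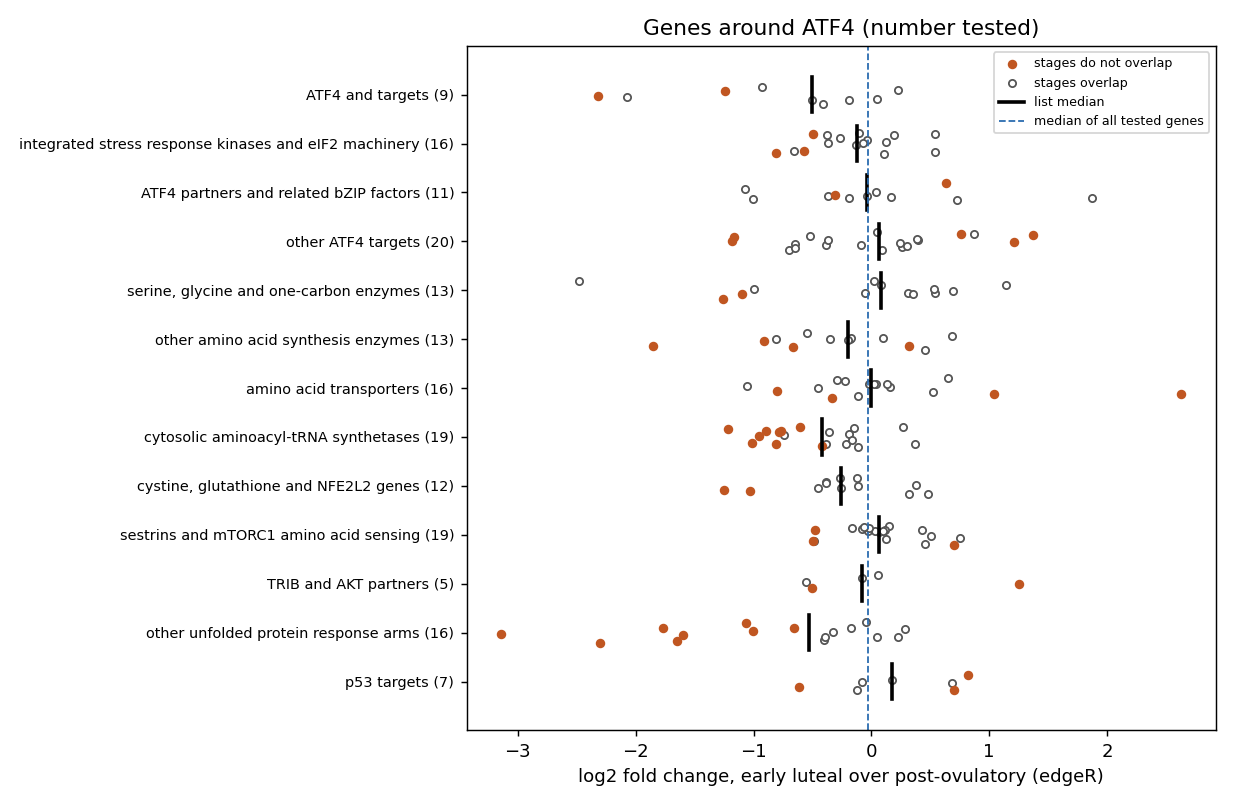
Log2 fold change, early luteal over post-ovulatory (horizontal axis), of every tested gene in the 13 lists, with the number tested in parentheses; filled points mark genes whose stages do not overlap, black bars the list medians and the dashed line the median of all tested genes (-0.03). The bars of the synthetases (-0.42), of ATF4 and its targets (-0.50) and of the chaperone arms (-0.53) lie farthest to the left.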

How the data were processed

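Stranded libraries were made from ampulla RNA with a KAPA mRNA kit and sequenced with paired reads (NextSeq2000), per the labels' protocols. The submitters' processing notes name FastQC 0.11.4, Trim Galore, STAR and Sscrofa11.1. How reads were counted, with which strand setting and annotation, is not given in the sources used here. Overlapping and antisense genes are therefore uncertain. The authors deposited unnormalized whole-number counts for each Ensembl gene in a single table. Its header lacks a tab, so samples were assigned by the order of the header words, and the word of early luteal replicate 3 lacks a letter. Symbols came from a table pairing Ensembl identifiers with names (15623 identifiers), and coordinates from the RefSeq table of Sscrofa11.1, by symbol.

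The comparison was early luteal over post-ovulatory, 3 libraries against 3, with edgeR 4.0.16 (R 4.3.3; quasi-likelihood test, TMM scaling, filterByExpr, two-sided, Benjamini-Hochberg over 17920 genes; common biological coefficient of variation 0.485). CPM are on the TMM scale, and the SE is the size of the log2 fold change divided by the root of F. Deviations and correlations used log2 CPM with a prior count of 2. Alternatives were other scalings and filters, a block for the replicate number, leaving out each library, DESeq2 1.42.0 and limma 3.58.1 voom.

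The members and lists were chosen with earlier results of these data known. The genes named are the 10 members, up to 3 genes of each pathway list with the lowest unadjusted p and its most abundant gene, 6 fixed regulators and partners, and the 5 genes most like the members' mean (mean CPM of at least 10); of these a part is printed. CEBPG, VEGFA, PYCR3 and further genes outside the rule were chosen after their values were seen. Some listed genes are not reported here.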

Additional observations from a re-analysis of the deposited data

How the results depend on the processing

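The number of members called was 0 under all 16 alternatives. The number of genes called was 0 in edgeR, and it was 8 with no filter on low counts, 175 in DESeq2 (0 in limma voom), 9 in limma voom with sample quality weights and 194 in DESeq2 without early luteal replicate 2, a fit added after seeing the data. It was 0 without each library in turn. The cause was not tested. The median log2 fold change of the members stayed between -1.004 and -0.31 without each library in turn and between -0.76 and -0.44 under the other alternatives. These medians cover unlike sets of members. CHAC1 entered with no filter, in DESeq2 and without post-ovulatory replicate 2 or any early luteal library, and not in the other fits.

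Of 144 refitted member values 131 kept their direction and 13 did not. They were in ATF4, DDIT3, TRIB3 and PSAT1. Without each library in turn ATF4 ranged from -0.616 to 0.0242, DDIT3 from -0.0646 to 0.43, TRIB3 from -0.136 to 0.152 and PSAT1 from -0.757 to 0.0505. TRIB3 was -0.0147 with no filter and -0.0013 in limma voom. With sample quality weights ATF4 was 0.0692, DDIT3 -0.0247 and TRIB3 -0.109. In DESeq2 without early luteal replicate 2, ATF4 was 0.008, DDIT3 -0.0862 and TRIB3 -0.0242. PHGDH, SLC7A5, SLC7A11, ASNS and SESN2 were lower in early luteal tissue in every fit.

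With the replicate number as a block, 0 members and 0 genes were called, and the members' median was -0.48. Deviations of same-numbered libraries correlated at 0.052, -0.082 and 0.126. With 3 libraries in each stage, these values cannot show whether same-numbered samples share an animal or a batch, and the labels state no pairing. Depth limits CHAC1, which had at most 6 counts in each early luteal library.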
